A study of Mus musculus with 12 samples.

Results

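The regions described here are 8946 stretches of open chromatin at the ends of protein-coding genes in mouse embryonic stem cells, detected in each of 12 ATAC-seq libraries and less than 2000 bp wide. They were chosen by 3 properties of the peak lists and the gene annotation. Peaks of the 12 lists on chromosomes 1 to 19 that overlapped by at least 1 bp were joined into 95132 merged regions, of which 22472 held a peak of every library. Of these constitutive regions, 8946 (39.8%) were under 2000 bp wide and lay within 1 kb of an annotated GRCm38 end of a protein-coding gene. The others were 504 broad regions at gene ends, 5740 regions inside genes and 7282 between genes. A gene end is either outermost position of the annotated gene, so it can be the start or the stop of transcription.

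The cells were BL6xCAST embryonic stem cells, a cross of C57BL/6 and CAST mouse strains, that carry a synthetic construct integrated on chromosome X. In the synHPRT1R lines the construct is a synthetic HPRT1 sequence in reversed order, and in the synHPRT1 lines it is the synthetic HPRT1 sequence itself. The study asked how accessible both constructs are beside the rest of the genome. Both genotypes were grown on gelatin, in medium made of 80% 2i medium and 20% mESC medium with LIF. Each genotype was represented by 2 clones with 3 replicates per clone, giving 6 synHPRT1R and 6 synHPRT1 libraries. Nothing in the labels says that replicates were cultured separately, and the p-values therefore reflect only how far these libraries differ, which may be technical. No library of unmodified cells was analysed here, and the regions lie on autosomes, away from the constructs.

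In ATAC-seq, the Tn5 transposase cuts and tags DNA that is not wrapped in nucleosomes. Promoters of broadly expressed mammalian genes are usually rich in CpG dinucleotides and keep a short nucleosome-free stretch just upstream of the start site in most cell types. When genes on opposite strands start back to back, the same open stretch can serve both, and such divergent pairs are common among genes of DNA repair, replication and metabolism. Transcription factors of the NRF1, ETS, SP/KLF, NFY, YY1 and ZNF143 groups are known to bind promoters of this kind.

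The lists held 38403 to 63704 peaks per library, and 15.0% to 25.4% of a list's peaks on chromosomes 1 to 19 lay in these regions. Sequencing depth was read from the lists themselves, as the whole-read pileup at each summit and the background pileup of each library. The genome background ranged from 1.74 to 3.72 reads, and the median summit pileup of the regions from 23 to 45 reads. For single genes, the libraries were counted at the merged region within 1 kb of an end that was listed in the most libraries. Other regions near the gene's ends were not added, so these counts can be too low. Of 5 stem cell genes, Pou5f1, Nanog, Sox2 and Zfp42 were open at an end in all 12 libraries, and Esrrb in 1 library. Of 12 fibroblast and feeder genes, Fn1 and Vim were open in all 12 libraries, Col1a1 in 11, Pdgfrb in 9, Col1a2 in 6, Dcn in 3, Pdgfra in 2, Thy1 in 1 and the other 4 in none. Of 16 genes of differentiated tissues, Sftpc was open at an end in 12 libraries, Apoa1 in 11, Ckm in 9, Krt14 in 1 and the other 12, such as Alb and Cd3e, in none.

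The promoters of 8 regions are shown because they hold the strongest shared start (Fto), the next strongest (Nme7), a shared start with 5 kinds of motif match (Dis3), strong single starts (Cep128 and Lrif1), the regions with summits that hardly moved (Opn3 and Dcaf7) and the lowest-ranked stem cell gene (Nanog). Each is a RefSeq window of GRCm38.p6 from 250 bases before to 50 bases after the annotated start, 5′ to 3′ on the gene's strand, so the start site is the base after the first 250. Capitals mark matches on either strand to the 10 motifs listed further on. The windows are Fto at chr8:91313275-91313574, plus strand, Nme7 at chr1:164307422-164307721, plus strand, Dis3 at chr14:99099721-99100020, minus strand, Cep128 at chr12:91384360-91384659, minus strand, Lrif1 at chr3:106684737-106685036, plus strand, Opn3 at chr1:175692583-175692882, minus strand, Dcaf7 at chr11:106036622-106036921, plus strand, and Nanog at chr6:122707239-122707538, plus strand.
Fto: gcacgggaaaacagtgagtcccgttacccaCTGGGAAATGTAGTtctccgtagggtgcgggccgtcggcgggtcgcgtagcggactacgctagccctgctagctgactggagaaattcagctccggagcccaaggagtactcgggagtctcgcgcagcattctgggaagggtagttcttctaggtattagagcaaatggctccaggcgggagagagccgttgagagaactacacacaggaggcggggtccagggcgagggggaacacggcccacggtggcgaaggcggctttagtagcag
Nme7: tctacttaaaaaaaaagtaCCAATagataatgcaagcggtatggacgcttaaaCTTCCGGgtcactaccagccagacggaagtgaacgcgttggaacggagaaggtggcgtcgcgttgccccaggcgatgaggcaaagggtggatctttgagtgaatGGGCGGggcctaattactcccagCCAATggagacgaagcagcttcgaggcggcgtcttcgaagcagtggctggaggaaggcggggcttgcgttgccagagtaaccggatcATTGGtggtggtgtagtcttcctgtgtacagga
Dis3: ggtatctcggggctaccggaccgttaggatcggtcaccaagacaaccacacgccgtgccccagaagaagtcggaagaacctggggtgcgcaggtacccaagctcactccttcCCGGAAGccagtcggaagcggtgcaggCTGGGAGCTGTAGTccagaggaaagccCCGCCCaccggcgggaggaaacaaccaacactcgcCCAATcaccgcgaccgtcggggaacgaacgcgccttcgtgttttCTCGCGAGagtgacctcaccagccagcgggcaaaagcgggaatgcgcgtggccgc
Cep128: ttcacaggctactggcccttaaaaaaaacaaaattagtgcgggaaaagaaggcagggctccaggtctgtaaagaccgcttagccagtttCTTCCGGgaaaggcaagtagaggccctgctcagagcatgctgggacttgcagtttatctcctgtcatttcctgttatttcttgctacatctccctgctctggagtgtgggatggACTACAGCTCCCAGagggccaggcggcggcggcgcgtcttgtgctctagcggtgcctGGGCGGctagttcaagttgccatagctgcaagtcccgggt
Lrif1: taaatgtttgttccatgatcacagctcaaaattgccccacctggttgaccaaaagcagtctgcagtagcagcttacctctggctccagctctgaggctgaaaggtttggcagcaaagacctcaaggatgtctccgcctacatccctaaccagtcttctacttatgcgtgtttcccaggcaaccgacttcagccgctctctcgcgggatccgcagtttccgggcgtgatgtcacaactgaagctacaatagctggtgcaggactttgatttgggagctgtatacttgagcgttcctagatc
Opn3: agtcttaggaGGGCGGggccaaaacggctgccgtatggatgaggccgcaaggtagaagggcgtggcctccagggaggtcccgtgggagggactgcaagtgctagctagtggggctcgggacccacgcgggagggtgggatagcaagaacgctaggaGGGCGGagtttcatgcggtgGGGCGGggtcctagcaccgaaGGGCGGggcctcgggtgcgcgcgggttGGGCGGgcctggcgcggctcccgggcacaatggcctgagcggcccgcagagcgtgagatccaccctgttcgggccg
Dcaf7: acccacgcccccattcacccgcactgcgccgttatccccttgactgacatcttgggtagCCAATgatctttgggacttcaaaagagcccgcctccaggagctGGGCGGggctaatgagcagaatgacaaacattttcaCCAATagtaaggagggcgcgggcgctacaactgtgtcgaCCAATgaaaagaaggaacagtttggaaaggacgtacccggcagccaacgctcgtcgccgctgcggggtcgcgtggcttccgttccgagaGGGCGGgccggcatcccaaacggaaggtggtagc
Nanog: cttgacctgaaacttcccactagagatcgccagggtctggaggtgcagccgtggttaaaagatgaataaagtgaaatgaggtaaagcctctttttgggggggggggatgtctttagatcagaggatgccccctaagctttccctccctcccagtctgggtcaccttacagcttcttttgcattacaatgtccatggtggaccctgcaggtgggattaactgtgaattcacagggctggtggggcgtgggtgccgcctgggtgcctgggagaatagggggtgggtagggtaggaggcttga
The median summit over the 12 libraries fell at base 136 of the Fto window, 140 of Nme7, 207 of Dis3, 185 of Cep128, 245 of Lrif1, 38 of Opn3, 169 of Dcaf7 and 160 of Nanog. In all 8 windows the summit thus lay before the start site, by a few bases in Lrif1 and by most of the window in Opn3.

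The regions were a median of 1182 bp wide (quartiles 968 and 1425 bp), from 203 to 1999 bp, and 86.5% contained a gene end. Within 1 kb of them lay an end of 9924 of the 20661 protein-coding genes on these chromosomes (48.0%). To compare libraries of different depth, the strongest peak of a region in a library was ranked by its fold, the deposited ratio of summit pileup to local background, among the 22472 constitutive regions. The rank is given as a percentile, and 50 is the middle constitutive region. The median region had a fold percentile of 57.9 (quartiles 33.3 and 79.3), against 39.4 for the broad regions at gene ends, 42.8 for regions inside genes and 45.4 for regions between genes. The median fold was 7.19, against 6.21 in the broad regions, 6.38 inside genes and 6.5 between genes. The summit pileup, a level that is not divided by the local background, had a median of 30 reads, against 32 in the broad regions and 25 in each of the other classes. The broad regions thus had slightly more reads at the summit, over a higher local background (4.59 reads, against 3.33 in the narrower regions). Because the regions were chosen from the same peaks, these values describe them and carry no test.

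At the width limit, the members nearest to it were at Lemd3, Fzd4 with Tmem135, and Hmces with Copg1, each 1999 bp wide, with median fold percentiles of 74.5, 71.2 and 26.9. The nearest regions outside were at Ppp1r3g, Ywhag and Ivns1abp, each 2001 bp wide, at 38.7, 27.5 and 60.4. At the distance limit, Abcc4, Slco1a5 and Sgo1 lay 999, 997 and 996 bp from a gene end, at 40.3, 18.6 and 85.9. Just outside, Myo1c and Gnat1 lay at 1001 bp and Rbm12b1 at 1003 bp, with percentiles of 3.69, 7.92 and 56.5. Members and non-members at both limits thus spanned overlapping ranges of percentile.

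The kind of gene end went with large differences in rank. Orientation was known for 16456 genes, those with a row in the promoter table. The start of 1 gene was the end near 5591 regions (62.5%), with a median fold percentile of 60.1. The stop of 1 gene was near 272 (3.04%), at 31.5, and stops of 2 genes near 27, at 23.4. Regions at 1 short gene whose start and stop both lay within reach numbered 118, at 36.6. For 1477 regions with 1 gene and 364 with more genes, orientation was not known.

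Ends of 2 or more genes lay within 1 kb of 1488 regions (16.6%), called shared here, and need not lie inside the region. Of these, 486 (5.43% of all) were near the starts of 2 genes that point away from each other, called divergent here. Another 286 were near starts of 2 genes on opposite strands whose first parts overlap, and 24 near starts on the same strand. The start of 1 gene and the stop of another were near 274, and the ends of 3 or more genes near 27. Divergent regions had the highest median percentile of these classes, 71.3, and overlapping heads had 66.3. Regions at a start next to another gene's stop had 52.0. The median summit pileup was 35.5 reads in divergent regions, against 30.5 at single starts and 24 at single stops, so the order of levels was the same without division by the local background. Divergent regions were slightly wider, 1227 bp against 1182 bp at single starts.

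This order held in each library. The median percentile of the divergent regions ranged from 69.8 to 72.0 over the 12 libraries, that of single starts from 58.9 to 61.6 and that of single stops from 30.4 to 37.0. The divergent median was above the single-start median in 12 of 12 libraries, and the ranges over libraries did not overlap. The regions are the same in every library, so this shows that the difference is steady between libraries and is not a test over independent regions.

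**Figure D1:**
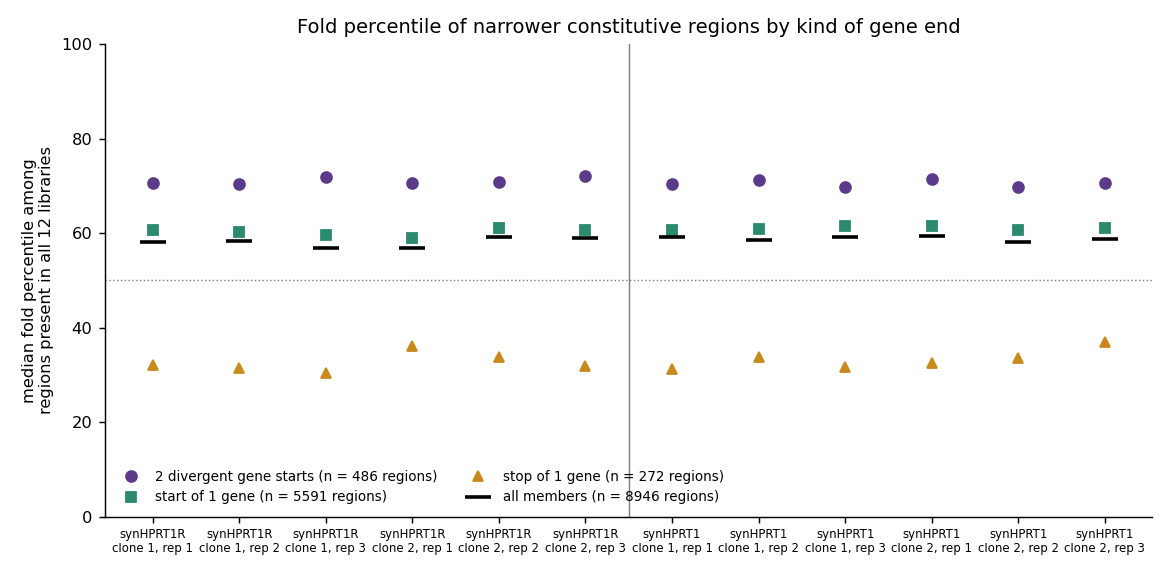
Median fold percentile (vertical axis, 0 to 100) of regions at 2 divergent gene starts, at the start of 1 gene, at the stop of 1 gene and of all members, in each of the 12 libraries (horizontal axis, synHPRT1R left, synHPRT1 right). Divergent starts lie between 69.8 and 72.0 in every library, above single starts, and single stops lie between 30.4 and 37.0; the dotted line marks 50.

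The summit lay close to the start. For 6662 regions with an annotated start within 1 kb, the median summit was 24 bp upstream of the nearest start (summit minus start -24 bp, quartiles -100.5 and 58.5 bp). It fell within 100 bp of the start in 56.3% of these regions and upstream of it in 57.7%. At divergent starts the quartiles were -81.6 and 19.5 bp, against -106 and 64 bp at single starts. The summit lay upstream of the nearest start in 62.0% at divergent starts, against 57.5% at single starts. Distances were taken to the nearest of all RefSeq starts in the promoter table, which can list several for 1 gene. Divergent regions offer starts of 2 genes, so a narrower spread there follows in part from the measure and is not read as a difference. At 280 regions with overlapping heads the median was -1 bp.

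The outermost annotated starts of the divergent genes were a median of 102 bp apart. In 240 regions they lay under 100 bp apart, in 99 from 100 to 200 bp and in 95 from 200 to 500 bp, with median percentiles of 71.5, 74.7 and 74.1. For 29 pairs from 500 to 1000 bp apart the median percentile was 57.0, and for 23 pairs farther apart it was 36.5. The summit lay between these outermost starts, a smaller set than the RefSeq starts above, in 200 of the 486 regions (41.2%). That share was 17.5% in the closest pairs, 58.6% from 100 to 200 bp, 73.7% from 200 to 500 bp, 65.5% from 500 to 1000 bp and 47.8% beyond that. In 80 divergent regions (16.5%) at least 1 library listed 2 or more peaks, among them 28 of the 240 closest pairs, 14 of 29 pairs 500 to 1000 bp apart and 2 of 23 pairs farther apart.

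The strongest shared end of 2 genes was that of Fto, which encodes an RNA demethylase, and Rpgrip1l, a protein of the ciliary transition zone (chr8:91312968-91313972). Its fold was 11, 13.3 and 15.4 in the synHPRT1R libraries (lowest, median and highest) and 12.1, 13.4 and 15.5 in the synHPRT1 libraries. The genotypes overlapped, and the percentile had a median of 99.2 and a minimum of 94.0. Nme7, a nucleoside diphosphate kinase family member of the gamma-tubulin ring complex, and Blzf1, a Golgi protein, followed (chr1:164306939-164308191). Their fold was 11.9, 12.4 and 16.6 in synHPRT1R and 12.9, 13.8 and 14.5 in synHPRT1. Bbs10, a chaperonin-like protein mutated in Bardet-Biedl syndrome, shared its start with the stop of Osbpl8 (chr10:111298127-111299081, median percentile 98.8). Dhx29 and Mtrex, RNA helicases of translation initiation and of the nuclear exosome, were next (chr13:112926997-112928246, 98.8). The remaining 6 of the top 10 were 2700097O09Rik with Srp54a, Ndufaf7 with Cebpz, Blvra with Ap4e1, Dzank1 with Polr3f, Fbxo38 with Spink10, and Dis3 with Pibf1, from 98.1 to 98.7. Dis3 encodes a nuclease of the exosome and Polr3f a subunit of RNA polymerase III.

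Of 16 gene pairs known from textbooks as head to head neighbours, 12 shared a member region. By the annotated starts 7 of these 12 were divergent, 2 had overlapping heads (Hspd1 with Hspe1, and Paics with Ppat) and 3 had unknown orientation. Atm, the DNA damage kinase, and Npat, a histone gene activator, start 61 bp apart and had a median percentile of 95.2 (lowest 82.4 and highest 99.1 of the 12 libraries). Prkdc, the catalytic subunit of DNA-dependent protein kinase, with the replication helicase gene Mcm4 had 90.7. Sirt3 with Psmd13 had 79.5, Ranbp1 with Trmt2a 71.3, Paics with Ppat 66.3, Sars2 with Mrps12 64.7, Brca1 with Nbr1 58.7 and Gart with Son 56.2. The chaperonin pair Hspd1 and Hspe1 stood at 39.6, and Trp53 with Wrap53 at 6.68, with 25 reads at the summit. The collagen genes Col4a1 and Col4a2 were at broad regions, and Tbp and Psmb1 had member regions but none in common. Surf1 with Surf2 and Col4a3 with Col4a4 had only regions missing from at least 1 library. A shared start thus covered nearly the whole range of percentiles.

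Summit positions were compared over the 12 libraries. The SD of the summit had a median of 85.8 bp over the regions (quartiles 54.5 and 133 bp), against 225 bp in the broad regions at gene ends, 79.8 bp inside genes and 78.0 bp between genes. The SD went with width. Its median was 65.7 bp in members 500 to 1000 bp wide, 90.2 bp from 1000 to 1500 bp and 131 bp from 1500 bp up. Only 1 peak was listed in each library for 79.6% of the regions, against 12.9% of the broad ones. In those 7119 regions the median SD was 80.1 bp, and in the other 1827 it was 131 bp. The SD was under 25 bp in 220 regions (2.46%) and over 250 bp in 598 (6.68%).

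Summits were steadier where the fold was higher. In the lowest 2237 members by median percentile the median summit SD was 126.5 bp, and in the highest 2237 it was 58.0 bp. The median pileup in these groups was 20.5 and 44.5 reads and the width 1118 and 1179 bp. The parts of read number and of width in the summit spread were not tested. Divergent regions made up 3.22% of the lowest 2237 and 8.14% of the highest. Their summit SD was 73.8 bp, against 84.7 bp at single starts, and the median distance of the library's summit from the 12-library median was smaller at divergent starts in 12 of 12 libraries (31.75 to 42.75 bp, against 34.5 to 47.5 bp).

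**Figure D2:**
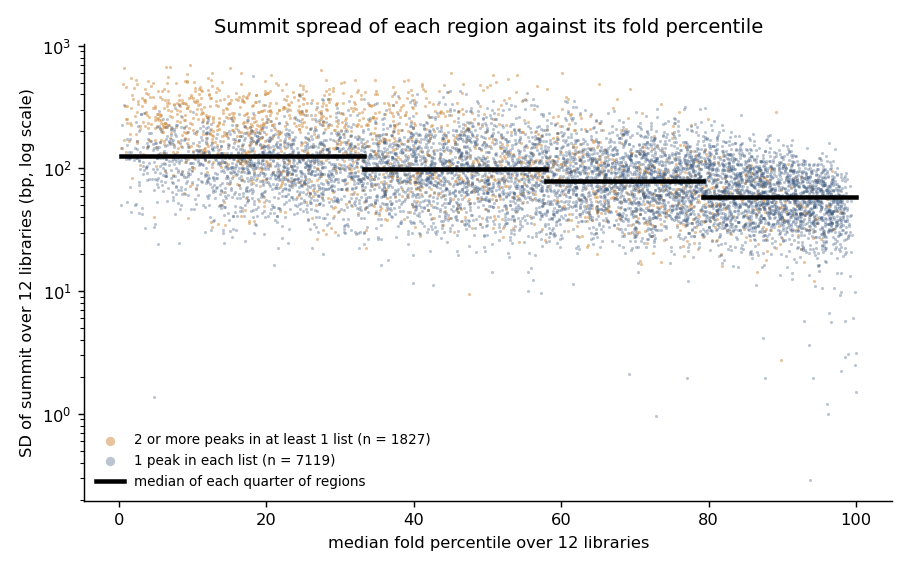
SD of the summit over the 12 libraries (vertical axis, bp, log scale) against the median fold percentile (horizontal axis) for each of the 8946 regions, coloured by whether any list split the region into 2 or more peaks. Black lines give the median SD in 4 equal groups of regions ordered by percentile, 126.5 bp in the lowest group and 58.0 bp in the highest.

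The steadiest summit was at Opn3, an opsin gene (chr1:175691970-175693401). It lay at position 175692845 in 11 of 12 libraries and at 175692846 in synHPRT1 clone 2 replicate 1. The fold there was 10.2, 11.1 and 11.5 in synHPRT1R and 9.71, 10.4 and 12.2 in synHPRT1 (lowest, median and highest of 6). Depdc7 had its summit at 104742910 in 10 of 12 libraries. At Dut, which encodes dUTPase, the 12 summits spanned 3 bp, at Dcaf7, a WD-repeat scaffold, 2 bp, and at Ptcd1 with Cpsf4, a mitochondrial RNA protein and a subunit of the mRNA 3′ cleavage complex, 3 bp. Pcmtd1 spanned 6 bp, Lars2 4 bp and H2az1, the gene of the histone variant H2A.Z, 5 bp. H2az1 had a low median percentile of 4.81, with 45 reads over a local background of 9.96. The others of these 8 regions had median percentiles from 72.9 (Dut) to 99.9 (Lars2). Their median summit pileups ran from 53 reads (Depdc7) to 606 (Lars2).

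Among the 8 largest spreads were those at Adamtsl4 (SD 699 bp), Foxb1 (673 bp), Cd24a (666 bp), Rps15a (662 bp), Gm12500 (632 bp), Slc10a4 (602 bp) and Erbb4 (599 bp). All 8 regions were at least 1762 bp wide and were listed as 2 or more peaks in 2 to 12 libraries. Their median percentiles were between 0.77 and 27.4, and their median summit pileups between 16 and 30.5 reads. At Adamtsl4, Cd24a and Rps15a each library listed 2 or more peaks. At Adamtsl4 the strongest summit ranged from 95674350 to 95675966 in synHPRT1R libraries and from 95675932 to 95675965 in synHPRT1 libraries. At Adamtsl4, therefore, the lowest and highest strongest summits lay 1616 bp apart, in a region 1793 bp wide.

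The 5 highest ranks belonged to regions at gene stops and at Gm20594, a short gene with both ends in reach. Gm20594 (chr6:79818144-79818346, 203 bp) had a fold of 35.3, 37.8 and 38.6 in synHPRT1R and 33.9, 37.3 and 40.3 in synHPRT1. At the stop of Lars2, the mitochondrial leucyl-tRNA synthetase (chr9:123461798-123462182), it was 36.1, 36.8 and 37.5 in synHPRT1R and 34.9, 36.2 and 37.3 in synHPRT1. The summit at Lars2 held a median of 606 reads, against 30 in the median region, over a local background of 16.1. The stops of Wls, a Wnt secretion factor (chr3:159939405-159939679), and Cers5, a ceramide synthase (chr15:99735623-99736122), had median folds of 33.6 and 28.2. These 4 regions were 203 to 500 bp wide, and 25 of all members (0.279%) were under 500 bp wide. Prdm9, the meiotic hotspot methyltransferase, had a region 938 bp from its stop with a fold of 16.2 (chr17:15544010-15544918). The sources used here do not state how reads that map to several places were treated, and their part in these 5 regions was not tested.

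Regions at single gene starts followed at lower folds. Lrif1, a nuclear receptor cofactor linked to heterochromatin, had 13.0, 14.1 and 15.4 in synHPRT1R and 12, 15.2 and 15.7 in synHPRT1 (chr3:106684519-106685408). Hps3, a subunit of a lysosome-related organelle complex (chr3:20034740-20035498), Pacrgl (chr5:48372048-48372939) and Cep128, a centriole appendage protein (chr12:91383752-91384843), had median folds of 13.9, 14.4 and 14. The median percentiles of these 4 were 99.3 or 99.4.

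The lowest ranks included Nanog, a core pluripotency factor (chr6:122706925-122707790). Its fold was 2.90, 3.46 and 3.78 in synHPRT1R and 2.72, 3.15 and 4.14 in synHPRT1, and its median percentile was 0.946. Its summit pileup was 25, 32 and 44 reads in synHPRT1R and 20, 43 and 48 in synHPRT1, above the 30 reads of the median region in both medians. The local background at Nanog was 10.3 reads, against a median of 3.33, so the low percentile stood beside a high local background. The same held at Crlf2, a cytokine receptor subunit, with a percentile of 0.38, 73.5 reads at the summit and a local background of 23.8. Tspoap1, Ctc1, Zcchc2, Taf1d with Cep295, Patz1, Gpr108, Rps15a and Gm46294 made up the rest of the lowest 10, with percentiles from 0.32 to 0.82 and local backgrounds from 4.13 to 12.7 reads. The summit pileup was below the 30 reads of the median region in 7 of these 10 regions, from 15.5 reads at Gm46294 to 27.5 at Zcchc2, and above it in Crlf2, Gpr108 (42 reads) and Nanog.

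The gene lists give the kinds of genes at these regions, beside 48.0% of all protein-coding genes. Of the genes of aminoacyl-tRNA synthetases 32 of 35 (91.4%) had an end near a member, with a median percentile of 79.3. For DNA replication the count was 23 of 25 (92.0%, median percentile 73.9), for DNA repair 22 of 26 (84.6%, 82.5), and for splicing 25 of 27 (92.6%, 58.6). For RNA polymerase II and general factors it was 20 of 24 (83.3%, 55.4), and for the anaphase-promoting complex and mitotic checkpoint 16 of 20 (80.0%, 78.4). The median over all genes with a member was 60.3. All these lists thus had shares above that of all genes, and their ranks ranged from below to well above the median gene.

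Within these lists, the strand break repair genes Mre11a (97.5), Xrcc4 (96.4) and Atm (95.2) ranked highest in DNA repair, and the mismatch repair gene Msh6 had 17.0 and Parp1 28.9. For Rad50, Ercc2, Xrcc6 and Fancd2, the region near an end listed in the most libraries was found in 2 to 11. In replication, Gins2 (92.7), Mcm3 (92.5) and Orc2 (92.5) were highest, while the licensing factor Cdt1 had 12.5, and Orc1 and Rfc1 had no peak near an annotated end. Among the synthetases, after Lars2 with the region at its stop, Nars2 had 97.7 and Lars 96.6, and Vars and Vars2 had 22.3 and 23.6. The large subunit of RNA polymerase II, Polr2a, had 18.7 (lowest 5.40 and highest 72.4 of the 12 libraries). The initiation factor gene Gtf2e1 had 92.5 (65.6 and 96.8), and Cdt1 ran from 0.160 to 50.5. These single values are medians, and in 2910 members (32.5%) the percentile ranged over more than 50 points between libraries. The checkpoint genes Mad2l1 and Ttk had 95.8 and 92.4.

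Of 19 general pluripotency genes, 13 (68.4%) had a member, with a median percentile of 16.4. Klf5 (76.5) and Tbx3 (72.7) were high, Zfp42 had 52.4, and the starts of Pou5f1, Sox2, Klf2 and Klf4 were between 8.68 and 17.3. The Fgf4 region, at 6.23, was near the stop of the gene. Over the libraries Pou5f1 ran from 2.33 to 63.6 and Klf2 from 2.34 to 60.1. The summit pileup was 79 reads at Klf5, 47 at Zfp42, 46 at Klf2, 41.5 at Tfcp2l1 and 39.5 at Tbx3. It was 37.5 at Nanog, 35 at Pou5f1, 33.5 at Dppa2 and 31 at Utf1, all above the 30 of the median region, and 30 at Dppa5a. It was below 30 at Sox2 (27.5), Fgf4 (26) and Klf4 (25.5). Most members of this list thus had a low fold percentile without a low summit pileup. Of 20 lineage transcription factors 6 (30.0%) had a member, with a median percentile of 16.7, and 11 had only regions missing from at least 1 library. Members were found at 1 of 12 fibroblast and feeder genes (8.33%), Fn1, and at 1 of 16 genes of differentiated tissues (6.25%), Sftpc. Lists of broadly used cell machinery thus had larger shares and higher fold percentiles than lists of stem cell or lineage genes. This order is one of fold, which is divided by the local background, and not of summit pileup. The pileup ran from 25.5 to 79 reads in the pluripotency members. It ran from 18 (Prpf3) to 58 (Prpf4) in splicing and from 21.5 (Xpa) to 91.5 (Xrcc4) in DNA repair, so these ranges overlapped. The values describe these lists and were not tested.

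Promoter sequence was described from 20062 RefSeq windows of 16436 genes, of which 8041 had their start inside a member. The median GC content was 62.3% in these, against 66.3% where the start lay in a broad region, 60% in regions of 1 to 11 libraries and 47.7% where no region covered the start. The observed over expected CpG ratio was 0.803 in members, 0.827 in broad regions, 0.647 in regions of 1 to 11 libraries and 0.196 in no region. The motifs, searched on both strands, were the CCAAT box (CCAAT), SP/KLF (GGGCGG), ETS (CCGGAAG), NRF1 (GCATGCGC), YY1 (AAGATGGC), the palindrome CTCGCGAG, CRE (TGACGTCA), the TATA box (TATAAA), the E-box (CACGTG) and the ZNF143 element (ACTACA, any 2 bases, then TCCCAG). The last was added after the printed sequences were read, which include windows of high-ranked and divergent members. Its shares in those classes are therefore description only. Matches of different motifs could overlap and were counted for each.

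Windows in members matched SP/KLF in 70.9%, against 73.4% in broad regions and 47.0% of all windows. The ETS motif was found in 21.1%, against 8.71% in broad regions and 11.9% of all windows, so its share differed more between narrower and broad regions than that of SP/KLF. NRF1 was found in 5.87% (2.9% in broad regions and 3.54% of all), YY1 in 4.68% (3.35% and 3.06%), CRE in 3.9% (2.46% and 2.3%) and the E-box in 10.6% (10.5% and 7.89%). CCAAT was in 41.4% (35.5% and 38.1%), CTCGCGAG in 2.2% (3.35% and 1.21%) and ZNF143 in 2.95% (1.12% and 1.5%). TATAAA was in 5.62% of windows in members, 7.37% in broad regions, 12.7% of all and 22.9% of those in no region. GC content differs between these classes and changes how often a motif of given letters occurs, and its part was not tested.

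**Figure D3:**
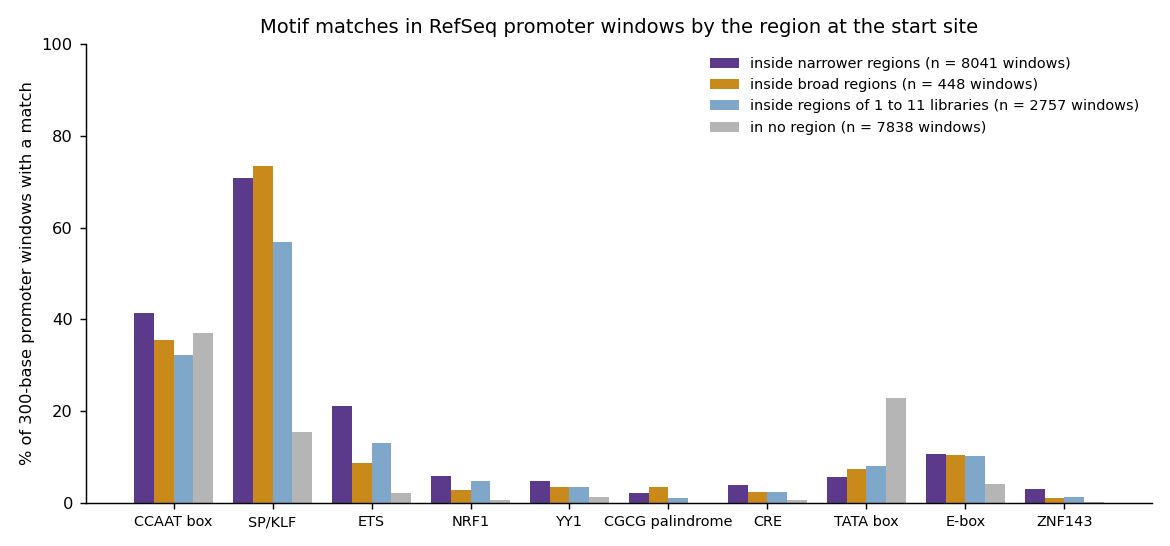
Percent of 300-base RefSeq promoter windows with a match to each of 10 motifs on either strand (vertical axis), for windows whose start lies inside a narrower region, a broad region, a region of 1 to 11 libraries or no region. SP/KLF is matched in 70.9% of the narrower and 73.4% of the broad, ETS in 21.1% and 8.71%, and TATAAA in 5.62% and 7.37%, against 22.9% where there is no region.

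Divergent regions differed from single starts in some motifs and not in others. ETS was matched in 30.5% of 960 windows at divergent starts, against 18.3% of 5777 at single starts, YY1 in 9.06% against 4.02%, ZNF143 in 5.21% against 2.56% and CTCGCGAG in 3.44% against 1.99%. SP/KLF (71.9% against 71.6%), CRE (3.75% against 3.69%) and the E-box (10.6% against 10.7%) had close shares. Windows of a divergent pair overlap when the starts are close, so a match can be counted for both genes. By rank, the CCAAT box was in 53.5% of windows in the highest 2237 members by percentile, against 30.7% in the lowest 2237, ETS in 25.6% against 15.8% and ZNF143 in 4.9% against 1.58%, while SP/KLF was in 68.7% against 69.4%. Among the printed windows, Fto, Dis3 and Cep128 have the ZNF143 element, Nme7 and Dcaf7 have 3 CCAAT boxes each, Opn3 has 5 SP/KLF matches and Lrif1 and Nanog have none of the 10. A match is a string of letters and says nothing of binding.

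The genotypes were compared region by region, to see whether these regions differed between cells with the reversed construct and cells with the synthetic HPRT1 sequence itself. In limma (trend) on the fold percentiles of all 22472 constitutive regions, 0 regions passed a Benjamini-Hochberg adjusted p of 0.05 (0.0% called), and so 0 of the 8946 members. At an unadjusted p under 0.05 there were 539 members (6.03%), 226 higher and 313 lower in synHPRT1R, beside 7.0% of all constitutive regions, so the members' share was near that of the background. The percentiles of the 6 synHPRT1R and 6 synHPRT1 libraries did not overlap in 22 members (0.246%), 7 higher and 15 lower in synHPRT1R, beside 0.378% of all constitutive regions. On simulated data the same fit recovered 14 of 100 regions shifted by 30 percentile points and 80 of 100 shifted by 60. Most simulated shifts of 30 points were thus missed, and smaller ones were not simulated. The spread over libraries differed with rank. The median SD of the percentile was 12.9 points in the lowest 2237 members, 16.4 in the 2236 next above and 7.42 in the highest 2237. The share missed can therefore differ between regions, and recovery at each rank was not tested. The 14 and 80 of 100 hold for the shifted regions only and are not rates for the members. A percentile cannot pass 100, so a rise of 60 points is not possible for most members, whose median percentile was 57.9.

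The smallest p belonged to Tead4, a transcription factor of the trophectoderm (chr6:128227430-128228025). Its percentile was 4.18, 20.1 and 38.2 in synHPRT1R and 46.9, 72.2 and 81.4 in synHPRT1 (lowest, median and highest of 6), and its pileup 11, 17 and 21 reads in synHPRT1R and 21, 27.5 and 40 in synHPRT1. The percentiles did not overlap, with a difference of -46.0 points (SE 8.68, limma unadjusted p = 9.66e-05, Benjamini-Hochberg adjusted p = 0.341). Next were Atp6v0d1 with Agrp (difference -21.7 points), Dnajc13 (-19.5) and Atp6v1e1 (-15.1), whose percentiles did not overlap either, and Ephx3 (-18.8) and Saraf (-21.1), which overlapped. Atp6v0d1 and Atp6v1e1 are subunits of the vacuolar proton pump. Of the members higher in synHPRT1R, the smallest p was at Hpcal1, a neuronal calcium sensor family gene (chr12:17690429-17691169), with 40.6, 47.7 and 57.2 in synHPRT1R and 6.71, 22.3 and 26.8 in synHPRT1 (difference 28.4 points). Slc37a3 (17.1) and the desuccinylase gene Sirt5 (33.0) did not overlap, and Fkbp1b with Wdcp (23.3), Srxn1 (28.9) and Tmprss2 (32.5) did. The limma adjusted p of the other 11 was 0.358, so none of these differences passed the test.

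No summary value of the libraries differed between the genotypes past the threshold of its test. The median percentile of the regions was 58.0 ± 0.96 in synHPRT1R and 58.8 ± 0.464 in synHPRT1 (SD, n = 6 each), a difference of -0.80 points (two-sided exact permutation p = 0.0974, Benjamini-Hochberg adjusted over 3 comparisons 0.292). Clone means were 57.7 and 58.3 in synHPRT1R clones 1 and 2, and 58.9 and 58.7 in synHPRT1 clones 1 and 2, and with 2 clones on each side the smallest p of an exact permutation test is 0.333. Under 4 of 20 other settings the unadjusted p fell under 0.05, with differences of -0.797 to -1.20 points. The median distance of a library's summit from the 12-library median was 44.5 ± 3.44 bp in synHPRT1R and 41.25 ± 4.41 bp in synHPRT1, a difference of 3.21 bp (exact permutation p = 0.195, adjusted 0.292). The number of peaks per region was 1.0475 ± 0.00417 in synHPRT1R and 1.0486 ± 0.011 in synHPRT1, a difference of -0.0011 (exact permutation p = 0.794). The smallest p that 6 against 6 allows is 0.00216.

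The summit distance followed the length of the list. Over the 12 libraries, Pearson's r with the number of listed peaks was -0.922 (permutation p = 4e-05, adjusted 8e-05) and Spearman's rho -0.951 (permutation p = 2e-05, adjusted 4e-05), with 2 relations examined. Without the 2 libraries farthest from the median list length, r was -0.818 (permutation p = 0.00244). Within synHPRT1R r was -0.881 (exact permutation p = 0.0472) and within synHPRT1 -0.965 (exact permutation p = 0.00833). The distance was 47.75 bp in synHPRT1R clone 1 replicate 3, with 41737 peaks listed, and 35.5 bp in synHPRT1 clone 2 replicate 1, with 63704. The median percentile of the regions showed no such relation that passed the test (r = 0.386, permutation p = 0.201, adjusted 0.201, with a Spearman's rho of 0.336, permutation p = 0.286, adjusted 0.286), and without the 2 farthest libraries r was 0.0433 (permutation p = 0.934).

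**Figure D4:**
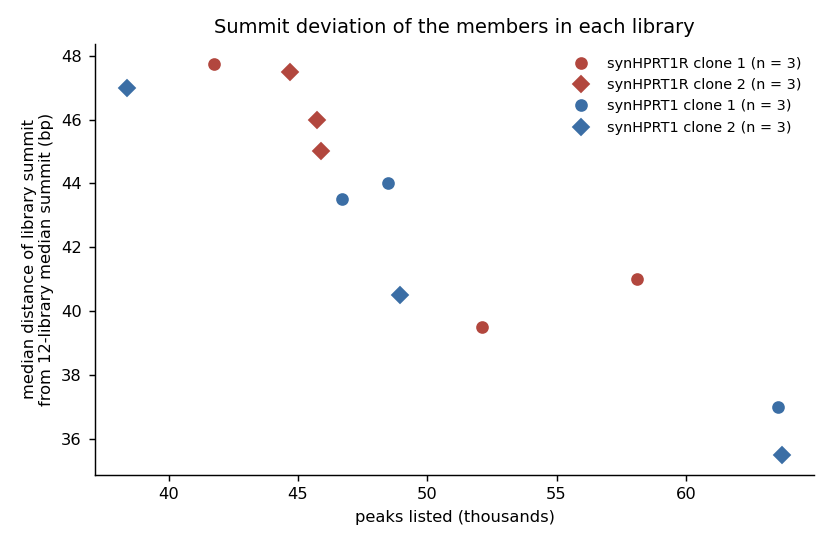
Median distance of a library's summit from the 12-library median summit over the 8946 regions (vertical axis, bp) against the number of peaks listed (horizontal axis, in units of 1000), 1 point per library, by genotype and clone. The distance is 47.75 bp at 41737 peaks and 35.5 bp at 63704, and r is negative within both genotypes.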

How the data were processed

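Peak lists of 12 ATAC-seq libraries were analysed. Per the submitters' processing notes, the tools were MACS2 2.1.0, Bowtie2 2.2.9, deepTools 3.5.0, bcl2fastq 2.20 and SAMtools 1.9, with mm10 and GRCm38 as genome builds. The sources used here do not state any shift of reads for the transposase overhang, or the treatment of duplicates, multiple mapping and blacklisted regions. Each library has its own list, so peaks were called per library. The deposited score is 10 times the −log10 q-value, rounded down. The deposited fold is a ratio, the summit pileup plus 1 over the local background plus 1. At each summit the lists also give a deposited −log10 p-value and a q-value as −log10, the lowest of which was 1.30. The summit is the deposited offset from the peak start. No per-gene counts were used.

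The members and gene lists were chosen with earlier results of these data known. Genes and orientation came from RefSeq tables of GRCm38.p6, in which orientation and promoters were used for the genes that have a row. Promoter windows on opposite strands that overlapped were reverse complements in 734 of 734 cases. Whole-read summit pileups were recovered from fold and −log10 p within 0.001 for 99.9% of the peaks of each library. Percentiles were tested with limma 3.58.1 (R 4.3.3), tested on simulated data, and library values with exact permutation tests of 924 splits in Python 3.11.15 with scipy 1.17.1. Regions were named by fixed rules: the 10 highest and lowest percentiles, the 8 smallest and largest summit SDs, the 10 highest shared ends of 2 genes, those nearest each limit, the 6 smallest limma p in each direction, and the gene lists. The other settings were a −log10 q of at least 5, peaks that cover 50% of a region, other width and distance limits, other rankings and models, and leaving out each library. Ranking by recovered pileup was chosen after seeing the data. No 2 lists shared more than 0.144% of their intervals. A few members that these rules name are not reported here.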

Additional observations from a re-analysis of the deposited data

Results flagged for a closer look

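In 120 groups of 6 libraries of 1 genotype, 24 had a library at one extreme that stood farther from its nearest neighbour than Dixon's 95% critical value allows. Chance marks about 1 in 20 groups, and the regions were named for extreme values, so the 20.0% found here was not set against chance. Of the library summaries, the number of peaks per region in synHPRT1R stood apart in clone 1 replicate 1, at 1.0396, with the other 5 between 1.0467 and 1.0509.

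Among the highest-ranked regions, fold percentiles were low in 1 library of a genotype. In synHPRT1 clone 2 replicate 3, the library with the shortest list, this was so for Prdm9 (99.0), Lrif1 (97.8), Pacrgl (98.6) and Fbxo38 (91.0, the nearest other 97.1). In synHPRT1R it was so for Cep128 in clone 2 replicate 3 (98.6) and Fto in clone 1 replicate 1 (94.0, the nearest other 98.1). In synHPRT1 clone 1 it was so for 2700097O09Rik in replicate 2 (96.5) and Blvra in replicate 3 (96.4).

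Among the lowest-ranked regions, fold percentiles were high in 1 library. In synHPRT1R these were Gm46294 in clone 1 replicate 2 (17.9, the nearest other 2.30) and Patz1 in clone 2 replicate 3 (2.67). In synHPRT1 these were Rps15a in clone 1 replicate 1 (19.4, the nearest other 2.78), Gm46294 in clone 1 replicate 3 (5.69), Nanog in clone 1 replicate 2 (6.55, the nearest other 1.46), Zcchc2 in clone 2 replicate 1 (2.93) and Crlf2 in clone 2 replicate 3 (1.91). Ephx3 had 21.9 in synHPRT1R clone 1 replicate 3, the nearest other 9.64, against a lowest value of 19.9 in synHPRT1, so the genotypes overlapped there through this library.

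Summits stood apart by a few bases at the steadiest regions. These were Dut at 125247616 in synHPRT1R clone 1 replicate 2, Opn3 at 175692846 in synHPRT1 clone 2 replicate 1, and Ptcd1 at 145167093 and Pcmtd1 at 7088770 in synHPRT1 clone 2 replicate 2. At regions split into several peaks the gaps were larger. Foxb1 had its summit at 69759798 in synHPRT1R clone 2 replicate 3 (the nearest other 69760776), Slc10a4 at 73008389 in synHPRT1R clone 1 replicate 2 (73007306) and Rps15a at 118103854 in synHPRT1 clone 1 replicate 2 (118102697).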

How the results depend on the processing

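The number of members was 8946, 8983 to 9279 when 1 library was left out, and 4381 when peaks had to cover 50% of a region in each list. Shared ends numbered 1488, 1486 to 1533 without 1 library, and 775 with 50% cover. They numbered 1267 with ends within 500 bp and 1876 with ends within 2 kb. The median summit SD was 85.8 bp (84.5 to 86.7 bp without 1 library), 78.2 bp at a −log10 q of at least 5, 79.7 bp at widths under 1500 bp and 80.1 bp over members with 1 peak in each list. The limma test (Benjamini-Hochberg) called 0 constitutive regions in 18 of 19 other settings, and 2 when ranked by recovered pileup, a setting chosen after seeing the data (smallest adjusted p 0.00073 over all regions and 0.199 over members). Members called numbered 0 in all 19, with 493 to 723 at an unadjusted p under 0.05 in the fits on all 12 libraries and all constitutive regions. The genotype difference of the median percentile was -0.80 points, -0.964 to -0.415 without 1 library. Its exact permutation p fell under 0.05 without synHPRT1R clone 2 replicate 2 (-0.955 points, p = 0.0476), at widths under 1500 bp (-1.13, p = 0.0411), within 500 bp of a gene end (-0.797, p = 0.0411) and with ranks by −log10 p (-1.20, p = 0.039), and over all 20 other settings p ranged from 0.039 to 0.333. The difference in peaks per region changed sign with 50% cover (0.000761, exact permutation p = 0.87) and ranged from -0.00311 to 0.00217 without 1 library, with a positive sign without synHPRT1 clone 1 replicate 1, synHPRT1 clone 1 replicate 2 or synHPRT1R clone 1 replicate 1. The cause of these changes was not tested, except that fewer regions enter under stricter limits. The difference in summit distance kept its sign and stayed over 0.05 in its 19 other settings. Replicate numbers did not pair the libraries. The correlation of same-numbered libraries was -0.0253 to 0.0303 over 18 pairs, none over 0.1, against -0.0264 to 0.029 over 36 other pairs. These are not correlations of the percentile levels, which varied less over libraries than between regions, and they do not measure agreement in level. Of the 12 libraries, 3 correlated best with their own number. With the replicate block limma called 0 regions, the smallest adjusted p being 0.436, and exact permutation within replicate numbers gave p = 0.13 for the percentile (-0.80 points), 0.231 for the summit distance (3.21 bp) and 0.843 for peaks per region (-0.0011).

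Depth limits these values. The summit of a typical region rests on 23 to 45 reads, small shifts in percentile between the genotypes could not be detected, and intervals for counting error were not drawn. An unlisted region is one that was not detected, so the members are regions strong enough for the shallowest list.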
